A study of Mus musculus with 10 samples.

Results

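Basal cells sit on the basement membrane of the trachea and large airways, and they are marked by a small set of keratins. The genes Krt5, Krt14, Krt15 and Krt17 were taken by name as these basal cell keratins, 4 of the 19096 genes that had a probe with a single symbol. They were measured in RNA from 5 whole lungs of Lkb1f/f mice (WT) and in RNA from 5 lung squamous cell carcinomas of CCSPiCreLkb1f/f mice (SCC). All 10 mice were of strain B6.129 and 13 months old, and no treatment was given. Both groups carry the floxed Lkb1 alleles, and the SCC group alone carries CCSPiCre, in which Cre recombinase is driven by the Club Cell Secretory Protein promoter in airway epithelium. The WT animals have no Cre, so an effect of the Cre allele cannot be told apart from that of Lkb1 loss. Lkb1 itself (Stk11) was not analysed here.

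Keratins build the cytoplasmic intermediate filaments of epithelial cells, and each filament is an obligate heteropolymer of a type I (acidic) and a type II (basic) chain. Krt5 encodes the type II chain of basal cells, and Krt14 encodes its main type I partner. Krt15 encodes another type I chain of basal cells that is known from quiet or stem-like basal cells, and Krt17 encodes a type I chain known for its induction in wounds and in hyperproliferative squamous epithelium. In the normal mouse lung, basal cells are largely confined to the trachea and main bronchi, and squamous carcinomas are widely recognised by Krt5 together with the transcription factor p63 (Trp63).

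The 250 bases before the transcript start of Krt5 are shown because Krt5 is the member with the largest difference and because p63, whose gene is described further on, belongs to the p53 family. In mouse build GRCm38.p6 (RefSeq) this window is chr15:101712906-101713155 on the minus strand, outside the transcript.

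Krt5 promoter: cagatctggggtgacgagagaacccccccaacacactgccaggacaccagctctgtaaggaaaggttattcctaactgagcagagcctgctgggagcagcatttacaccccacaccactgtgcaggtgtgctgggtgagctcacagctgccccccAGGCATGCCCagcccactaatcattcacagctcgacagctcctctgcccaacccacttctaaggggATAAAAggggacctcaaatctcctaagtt

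The capitals mark the 2 motif matches in the gene's own orientation. The first, AGGCATGCCC, lies at positions -95 to -86 from the start and matches the p53-family half-site, an element found in 7.13% of the 32851 RefSeq promoter windows searched on both strands. The other, ATAAAA, lies at -29 to -24 and occurs in 17.0% of those windows. The letters TATAAA, present in 12.4% of the windows, and the AP-1 letters TGANTCA, present in 6.75%, were not in the Krt5 window. The 2 matches do not overlap, and a match describes the letters only. Of the other members, Krt14 had a table entry that lay inside its annotated gene and is not shown, and Krt15 and Krt17 had no entry.

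Each array reported 41174 probes, and 71.0% to 74.5% of them were well above background on 9 of the 10 arrays, against 90.2% on SCC replicate 5. SCC replicate 2 stood apart in another way. Over all probes it correlated with the WT arrays at r = 0.940 to 0.946, while no other SCC array passed r = 0.905 with a WT array. Sex is not given in the labels. SCC replicate 2 had Xist not well above background (log2 signal 2.58) and the Y-linked gene Ddx3y at 11.28, a pattern shared with WT replicates 2 and 3, and both genes were well above background on SCC replicate 5 (Xist 13.75, Ddx3y 8.34) and, with a much dimmer Ddx3y, on WT replicate 1 (Xist 13.88, Ddx3y 4.87). The arrays lay on 3 slides, with WT replicates 1 to 4 on the first, WT replicate 5 and SCC replicates 1 to 3 on the second, and SCC replicates 4 and 5 on the third. Levels below are log2 quantile-normalized processed signals, and differences are SCC minus WT on that scale. A probe was called when the limma adjusted p was below 0.05 and the difference at least 2-fold.

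All 4 basal cell keratins rose in the carcinomas. The fitted folds were 2602 for Krt5, 1347 for Krt14, 277.9 for Krt17 and 44.11 for Krt15. The folds depend on how the dim WT signals are treated. With normexp background correction, which lifts dim signals, the log2 differences were 9.81 for Krt5, 9.18 for Krt14, 7.43 for Krt17 and 4.01 for Krt15, against 11.35, 10.40, 8.12 and 5.46 here, and all 4 were still called. Of the 30374 probes tested, 22.9% were called, with 9.92% higher in SCC and 13% lower. On all 4 keratin probes every SCC array exceeded every WT array, as it did on 16.3% of the tested probes, and the groups did not overlap in either direction on 37.4%. Each keratin was represented by 1 probe, and each probe was well above background on all 10 arrays, so no fold rests on an undetected group. RNA came from whole lung and from tumour tissue. In such RNA a change in the number of cells of a type cannot be told apart from a change in RNA per cell.

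Krt5 had log2 signals of 5.80, 6.63, 5.29, 5.61 and 5.76 in WT replicates 1 to 5. In SCC replicates 1 to 5 the signals were 17.45, 15.60, 17.60, 17.45 and 17.70. The lowest SCC array, replicate 2, was still 8.97 above the highest WT array. The group means were 5.82 ± 0.50 and 17.16 ± 0.88 (SD, n = 5 each), and the difference was 11.35 (SE 0.41, 95% interval 10.42 to 12.27, limma adjusted p = 2.14e-07). In fold terms the interval ran from 1372 to 4936. On the scanner's own scale the Krt5 spot read 105.5 to 185 units in WT, over a local background that spanned 41.5 to 52 units on all arrays, and 54561 to 243008 units in SCC.

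Krt14 had log2 signals of 6.13, 6.09, 6.29, 6.80 and 6.18 in WT replicates 1 to 5. The SCC signals were 17.09, 14.34, 17.42, 17.32 and 17.31. The same SCC array, replicate 2, was the lowest, and it lay 7.53 above the highest WT array. The means were 6.30 ± 0.29 and 16.69 ± 1.32 (SD, n = 5 each), with a difference of 10.40 (SE 0.55, 95% interval 9.16 to 11.63, limma adjusted p = 1.79e-06).

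Krt17 had log2 signals of 7.63, 7.85, 7.54, 7.76 and 7.60 in WT replicates 1 to 5. The SCC signals were 16.64, 12.14, 16.84, 16.62 and 16.73. This was the widest SCC spread of the 4 keratins, at 4.71 from lowest to highest, and without replicate 2 the other 4 arrays spanned only 0.22. The means were 7.68 ± 0.13 and 15.79 ± 2.05 (SD, n = 5 each), with a difference of 8.12 (SE 0.83, 95% interval 6.26 to 9.98, limma adjusted p = 5.38e-05). Leaving out SCC replicate 2 raised this difference to 9.03, the Krt14 difference to 10.98 and the Krt5 difference to 11.74.

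Krt15 had log2 signals of 6.0, 6.15, 5.65, 5.39 and 5.69 in WT replicates 1 to 5. The SCC signals were 11.02, 12.26, 10.55, 11.11 and 11.24. Here SCC replicate 2 was the highest array and not the lowest, and the groups were separated by a gap of 4.40. The means were 5.78 ± 0.30 and 11.24 ± 0.63 (SD, n = 5 each), with a difference of 5.46 (SE 0.29, 95% interval 4.82 to 6.11, limma adjusted p = 1.79e-06), and without SCC replicate 2 it was 5.21. With SCC replicates 2 and 5 both left out, the differences were 11.68 for Krt5, 10.98 for Krt14, 9.03 for Krt17 and 5.12 for Krt15.

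**Figure D1:**
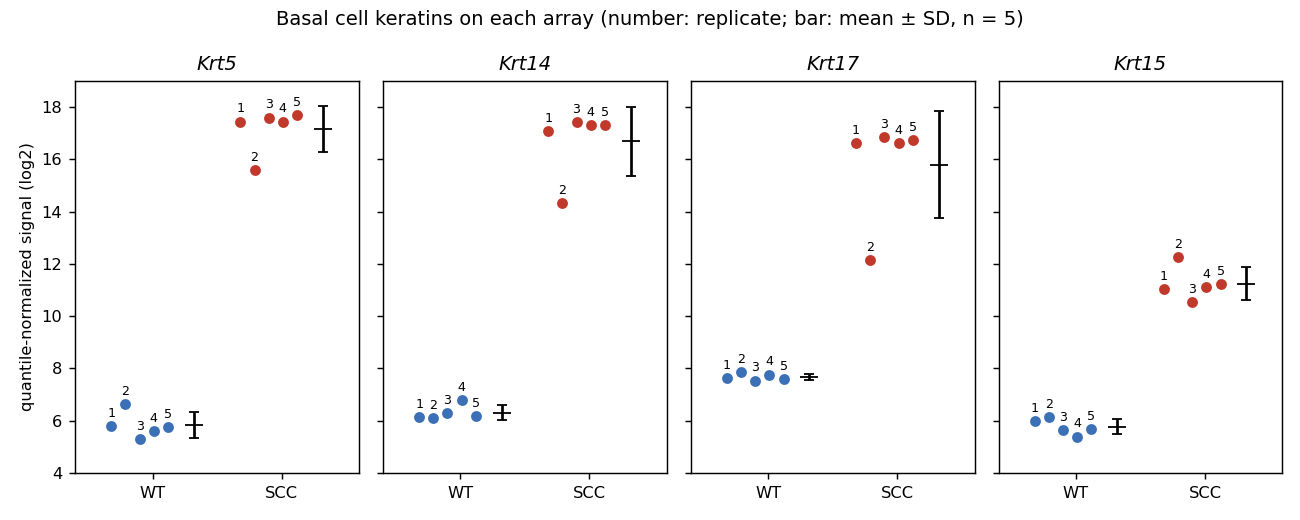
Log2 quantile-normalized signal (y axis) of Krt5, Krt14, Krt17 and Krt15 on each WT and SCC array, with replicate numbers beside the points and bars for mean ± SD (n = 5). SCC replicate 2 lies at 15.60, 14.34 and 12.14 for Krt5, Krt14 and Krt17, below the other SCC arrays, and at 12.26 for Krt15, above them.

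An exact two-sided permutation test over the 10 arrays gave p = 0.00794 for each keratin, the smallest value that 5 against 5 allows. With slide as a fixed block the differences were 11.13 for Krt5, 10.10 for Krt14, 5.59 for Krt15 and 7.61 for Krt17, with limma adjusted p between 0.000818 and 0.0222. These are also the values within the slide that held both groups (1 WT and 3 SCC arrays), where the adjusted p ranged from 0.123 to 0.217 and limma called 0 of the 30374 probes (5835 had an unadjusted p below 0.05). The bright SCC spots of Krt5 and Krt14 on 5 of 5 arrays, and of Krt17 on 4 of 5, exceeded the range of the high-gain scan and were read from a low-gain scan scaled up by the software. All WT spots, all Krt15 spots and Krt17 on SCC replicate 2 were read at high gain. Their part in the size of the folds was not tested. No spot of the 4 keratins was saturated.

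SCC replicate 2 is the array on which the 4 keratins parted. Relative to the mean of the other 4 SCC arrays, Krt17 was 4.57 log2 units lower there (23.8-fold), Krt14 2.94 lower (7.70-fold) and Krt5 1.95 lower (3.86-fold). Krt15 was 1.28 higher (2.43-fold). The other 4 SCC arrays differed little among themselves, with log2 SDs of 0.12 for Krt5, 0.14 for Krt14, 0.10 for Krt17 and 0.30 for Krt15. Against the WT mean, this tumour still had differences of 9.79 for Krt5, 8.04 for Krt14, 6.49 for Krt15 and 4.46 for Krt17, so Krt15 rose by more than Krt17 on this array alone. Trp63 was also lowest on this array (12.13, against a highest SCC value of 13.45), whereas Ngfr, the p75 neurotrophin receptor of basal cells, was highest (10.31, against a lowest SCC value of 9.24). A single tumour cannot be given an error, and these folds carry no p-value.

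Markers of several other cell types differed on this array. The summed signal of the 3 club cell genes (Scgb1a1, Scgb3a2, Cyp2f2) was 19.32 on the log2 scale, compared with 17.18 to 18.71 on the remaining SCC arrays, with WT at 19.25 to 19.72. The 4 endothelial genes summed to 15.95, compared with 14.95 to 15.29 on the remaining SCC arrays, with WT at 17.19 to 17.69. The 5 neutrophil genes went the other way, at 14.04 against 16.72 to 16.86, with WT at 14.73 to 15.54. The 5 alveolar type 2 genes summed to 19.25, against 18.93 to 19.18 and 19.36 to 19.40 in WT. Sftpc, the brightest of these genes, had the same signal (18.80) on every WT array and on SCC replicate 2. Quantile normalization gives equal ranks equal values, so the narrow WT range of this sum partly reflects the normalization. The summed signal of the 3 alveolar type 1 genes tested was 16.75 on SCC replicate 2, below the remaining SCC arrays (17.09 to 17.63). WT replicates 2 to 5 lay at 17.41 to 17.58. WT replicate 1 lacked a value for Aqp5, so its sum cannot be compared. Of these genes, Hopx and Aqp5 had their lowest SCC signal on SCC replicate 2 and Ager its highest (13.13). The 4 ciliated cell genes, at 11.98, lay inside the range of the remaining SCC arrays (10.52 to 12.81). Every tested marker of these 6 cell types was well above background on at least 4 arrays of each group. Their part in the keratin pattern was not tested.

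**Figure D2:**
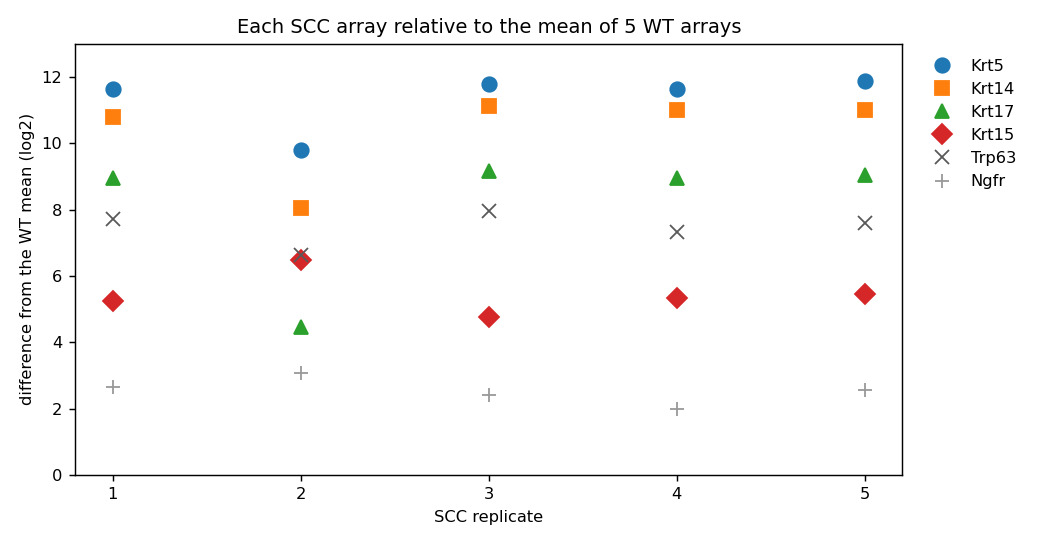
Difference of each SCC array (x axis, replicate number) from the mean of the 5 WT arrays (y axis, log2) for the 4 keratins and for Trp63 and Ngfr. On replicate 2 Krt17 lies at 4.46, below Krt15 at 6.49, while on the other 4 arrays Krt15 lies lowest of the 4 keratins.

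Whether the 4 keratins rose by unequal amounts was asked by taking the difference between each pair on every array and comparing SCC with WT in an exact two-sided permutation test, adjusted over the 6 pairs. Krt5 rose more than Krt15 by 5.88 log2 units, and Krt14 rose more than Krt15 by 4.93. Krt5 rose more than Krt17 by 3.23, and Krt14 more than Krt17 by 2.28. These 4 pairs each had an exact adjusted p of 0.0119 and kept their call whichever single array was left out. Krt5 exceeded Krt14, its filament partner, by 0.95 (exact adjusted p = 0.0476). This was the smallest of the 6 inequalities, and its call was lost in 9 of the 10 fits without 1 array (exact adjusted p 0.0571 to 0.0794), all but that without WT replicate 2.

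Krt15 rose less than Krt17 by 2.66 log2 units (difference -2.66, exact adjusted p = 0.0476), a call that was lost in 9 of the 10 fits without 1 array (exact adjusted p 0.0571 to 0.127). On SCC replicate 2 the sign was turned (2.03), and on the other 4 SCC arrays it ran from -4.40 to -3.58. In the 1 fit that kept the call, without that array, the mean difference was -3.83 (exact adjusted p = 0.00952). For the other pairs, SCC replicate 2 gave 3.30 for Krt5 minus Krt15, where the remaining SCC arrays lay at 6.29 to 7.01, and 1.55 for Krt14 minus Krt15, where they lay at 5.54 to 6.35. All pair values here are relative to the WT mean of the same pair, since signals of different probes have no common scale.

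**Figure D3:**
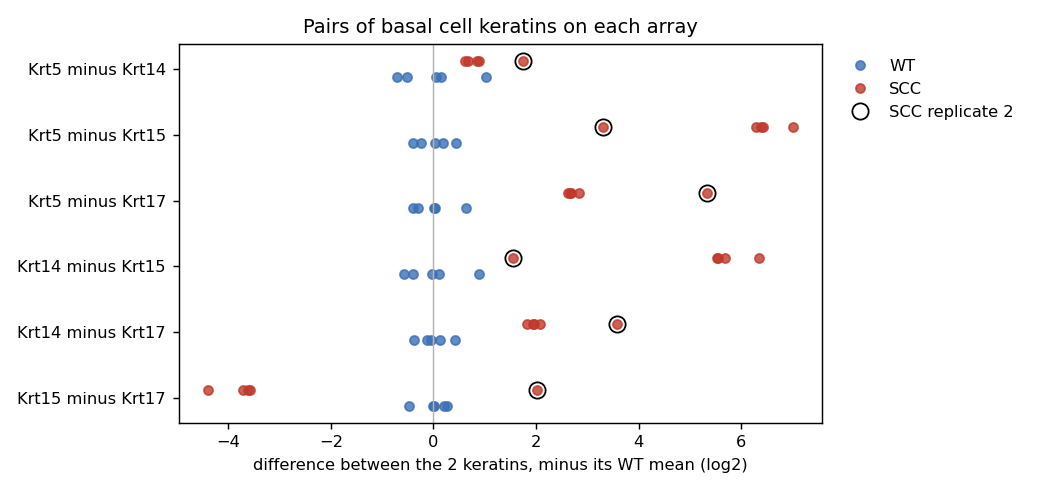
For each pair of keratins (y axis), the difference between them on each array minus the WT mean of that pair (x axis, log2), with SCC replicate 2 circled. The 4 other SCC arrays lie close together in every pair, and the circled array lies apart from them, on the other side of 0 for Krt15 minus Krt17 (2.03 against -4.40 to -3.58).

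The genes most like each keratin in size and pattern were found by the root mean square (RMS) difference between centred log2 profiles over the 10 arrays, among 14109 genes detected on all arrays. Krt14 was the nearest gene to Krt5 (RMS 0.70), followed by Lypd3 (0.95), which encodes a cell-surface protein of squamous epithelium, and Ltf (1.49), which encodes lactoferrin. Lypd3 was nearest to Krt14 (RMS 0.39), followed by Krt5 (0.70) and Krt16 (1.06). Lypd3 had an SCC minus WT difference of 10.21 and, like Krt14, its lowest SCC signal on replicate 2 (12.40). Ltf did not share that dip, with SCC signals between 18.10 and 18.29.

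Krt17 was nearest to Sprr1a (RMS 0.33), which encodes a cornified envelope precursor of differentiating squamous cells, then to Cysrt1 (0.35) and to Krt16 (0.44), the type I keratin induced with Krt17 in wounded epidermis. Their differences were 8.31 for Sprr1a, 8.09 for Cysrt1 and 8.81 for Krt16, and all 3 had their lowest SCC signal on replicate 2 (9.85, 9.09 and 11.44). Krt15 had another set of nearest genes, Fer1l4 (RMS 0.44, difference 5.25), Sox9 (0.53, difference 5.11) and Ankrd22 (0.58, difference 4.94). Sox9, a transcription factor of lung progenitor cells, had its highest SCC signal on replicate 2 (11.10), as had Fer1l4 (11.31), whereas Ankrd22 was lowest there (10.41). The list is a description of likeness and carries no test.

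In the genome, Krt5 belongs to the type II keratin cluster on chromosome 15, and the other 3 members belong to the type I cluster on chromosome 11. Gene order was taken from RefSeq, up to 3 protein-coding genes each way, a set chosen after the data had been seen. Beside Krt5, Krt6a and Krt6b rose on one side, while Krt71 on the other side was too dim to test, and Gm5414, Krt72 and Krt73 had no probe here. On chromosome 11 the order ran Krt35, Krt36, Krt13, Krt15, Krt19, Krt9, Krt14, Krt16, Krt17 and Krt42. Krt36 rose by at least 2.4-fold (limma adjusted p = 0.00757), a bound because its WT spots were not well above background. Krt13 (5.98), Krt14 and Krt16 rose by several log2 units, Krt19 (1.15, limma adjusted p = 0.000659), which stands between Krt15 and Krt14, rose by much less. Krt35 and Krt9 were too dim to test and Krt42 had no probe here. Past Krt42, the translation initiation factor gene Eif1 had a difference of -0.073 (limma adjusted p = 0.503) and the gastrin gene Gast 0.10 (limma adjusted p = 0.71), and neither was called.

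The wider keratin family held 43 genes with a probe, of which 30 were tested and 13 were too dim. Of the 30 tested, 21 rose, 2 fell and 7 were not called, with a median difference of 2.79. The 23 calls became 13 with slide as a fixed block, and 14 where only probes well above background on all 10 arrays were tested. Over all 15587 genes tested, 11.6% were called higher and 13.4% lower, and the median was -0.038. Since a keratin seen only in tumours had to differ in order to be tested, the 19 keratins well above background on at least 4 arrays of both groups were counted apart, and of these 13 rose and 1 fell. The type I chains contributed 9 of 9 such genes that rose and the type II chains 4 of 10. Type I and type II keratins polymerise together, and both types held genes with differences above 10.

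Among keratins other than the 4 members, the largest rises were in Krt6a and Krt6b, type II chains of activated and wounded squamous epithelium. Neither was well above background on any WT array, so only bounds are given. Krt6a was at least 1500-fold higher (limma adjusted p = 2.19e-05) and Krt6b at least 604-fold higher (limma adjusted p = 5.53e-05), each as the SCC mean against the dimmest signal that counted as well above background on a WT array, or the probe's own signal where that was higher. Krt16, their usual type I partner, had a difference of 8.81 (SE 0.97, limma adjusted p = 7.91e-05). Krt20, a chain of gut and urothelium, differed by 7.07 and Krt4, a chain of non-cornifying stratified epithelium such as oesophagus, by 6.60, as fitted. Each was well above background on 1 WT array only, so the fitted size depends on dim WT signals.

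SCC replicate 2 was again the lowest SCC array for Krt6a (10.32), Krt6b (8.34), Krt16 (11.44), Krt4 (5.14) and Krt13 (10.93), the type I partner of Krt4. Among the simple-epithelial keratins, Krt8 was at 16.39, Krt18 at 17.07 and Krt19 at 16.05 on that array, the highest SCC value of each, whereas Krt7 was at 16.92, its lowest SCC value. Of the 26 other keratins tested, 14 were lower on SCC replicate 2 than on all the other SCC arrays and 4 were higher, against 30.6% and 39.1% of all genes tested.

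The simple-epithelial chains, which line the normal airway and alveoli, were bright in both groups. Krt18 had a difference of 1.00 (SE 0.27, limma adjusted p = 0.0125) and was called. Its type II partner Krt8 differed by 0.59 (limma adjusted p = 0.115, 95% interval -0.054 to 1.24) and was not called. Krt7, another type II chain of simple epithelium, passed the adjusted p (0.00287) with a difference of 0.76, under the 2-fold limit. Krt75 (1.07), Krt88 (0.45) and Krt80 (-0.37) were not called either. The 2 genes that fell were Krt79 (-3.56, limma adjusted p = 1.74e-06), a chain of hair follicle and sebaceous duct, and Krt222 (fitted difference -1.75, limma adjusted p = 0.00707), which was well above background on 5 WT arrays but on 1 SCC array only, so its fitted size depends on dim SCC signals. Close paralogs such as Krt6a and Krt6b, or Krt14, Krt16 and Krt17, share long stretches of sequence, and since probe sequences were not used here, cross-hybridisation between them cannot be told apart from their own signal.

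**Figure D4:**
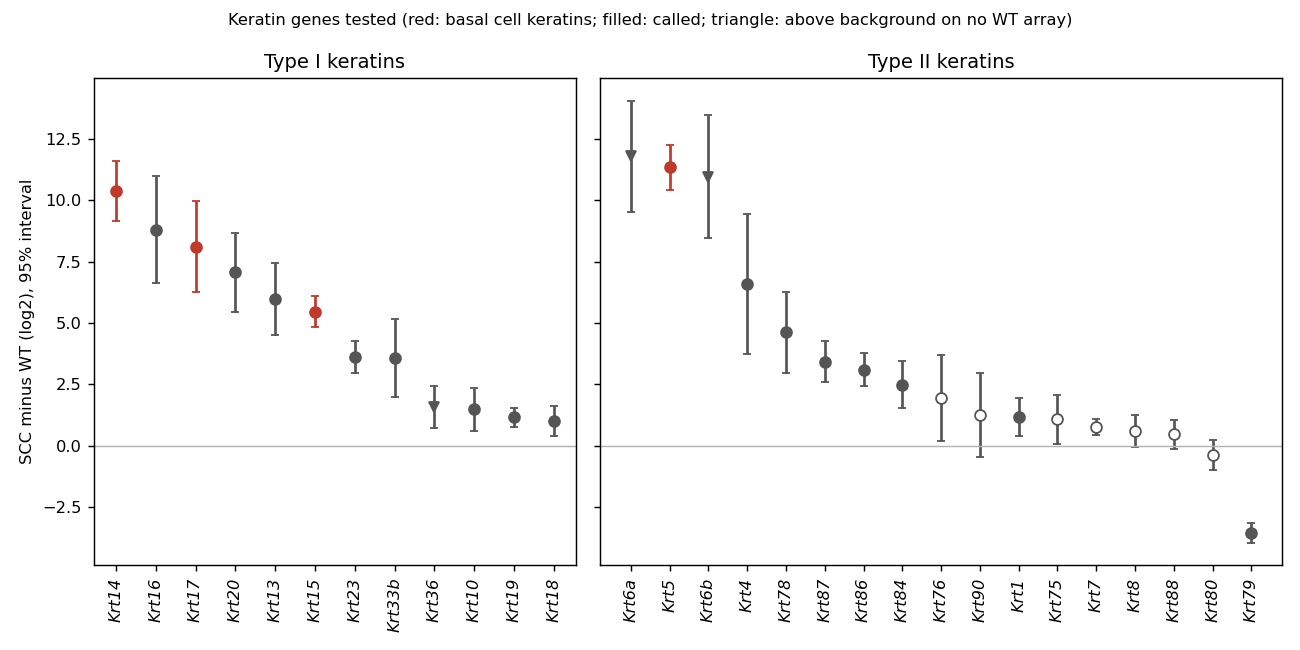
SCC minus WT difference (y axis, log2, with 95% interval) of each tested type I keratin (left) and type II keratin (right), basal cell keratins in red, filled where called, triangles where no WT array was well above background. Krt5 (11.35) stands among the highest type II chains and Krt14 (10.40) is the highest type I chain, while Krt79 (-3.56) falls. A triangle is the fitted value, which depends on the dim WT signal.

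Other genes of basal cells were counted from a list of 28, with 27 probed and 26 tested. Of these, 13 rose, 3 fell and 10 were not called, with a median difference of 1.08, beside 11.6% higher, 13.4% lower and a median of -0.038 over all genes tested. Among the 25 well above background in both groups, 12 rose and 3 fell. The defining markers both rose. Trp63, which encodes p63, had WT signals of 4.97 to 6.0 and SCC signals of 12.13 to 13.45, a difference of 7.44 (SE 0.27, limma adjusted p = 2.13e-07). Ngfr had WT signals of 6.93 to 7.50 and SCC signals of 9.24 to 10.31, a difference of 2.54 (SE 0.19, limma adjusted p = 1.11e-05). In both genes every SCC array exceeded every WT array, as on 16.3% of the tested probes.

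Aqp3, a water and glycerol channel of basal cells, had a difference of 7.43 (limma adjusted p = 1.44e-05). Dsg3, a desmosomal cadherin of basal squamous layers, was well above background on no WT array and was at least 44.5-fold higher (limma adjusted p = 0.00016). Cdh3, which encodes P-cadherin, differed by 4.39 and Trim29 by 3.95. On SCC replicate 2 these 4 genes had their lowest SCC signals, at 12.38, 5.57, 7.97 and 10.19. Of the 26 genes tested, 15 (57.7%) were lower on that array than on the other SCC arrays and 6 (23.1%) were higher, beside 30.6% and 39.1% of all genes tested.

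The 3 genes that fell were Cav1 (-2.47), which encodes caveolin-1, Pdpn (-1.30), which encodes podoplanin, and Dst (-1.23), which encodes the hemidesmosomal plakin BPAG1. Cav1 and Pdpn are also well known in alveolar type 1 cells, and Cav1 in endothelium. Of the lists for those cells, 2 of 3 tested alveolar type 1 genes and 4 of 4 endothelial genes were called lower, beside 13.4% of all genes tested, and their part in the fall was not tested. Genes that were bright in both groups without a call included Sfn (0.78, limma adjusted p = 0.00645), Itga6 (0.26, limma adjusted p = 0.0757), Snai2 (-0.53, limma adjusted p = 0.00139) and Itga3 (-0.62, limma adjusted p = 0.000567). Sfn encodes the epithelial adaptor 14-3-3 sigma, Itga6 and Itga3 encode laminin-binding integrin chains, and Snai2 encodes the transcription factor Slug.

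**Figure D5:**
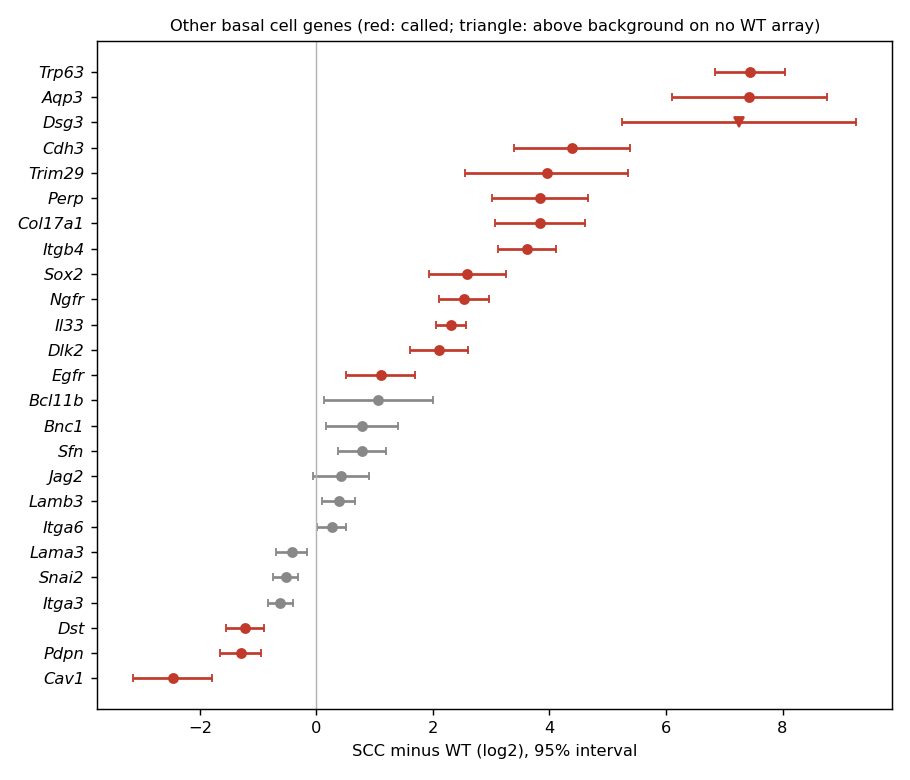
SCC minus WT difference (x axis, log2, with 95% interval) of 25 of the 26 tested genes of the basal cell list (y axis), red where called and a triangle where no WT array was well above background. Trp63 (7.44) is at the top and Cav1 (-2.47) at the bottom, with the uncalled genes between the 13 that rose and the 3 that fell.

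Keratin filaments are tethered to the cell surface at desmosomes, between cells, and at hemidesmosomes, on the basement membrane. Of 12 genes for proteins that anchor or bind keratin filaments, 7 rose, 1 fell and 4 were not called, with a median difference of 1.49, where 11.6% of all genes tested were called higher and 13.4% lower, with a median of -0.038. Among the 11 well above background on at least 4 arrays of both groups, 6 rose and 1 fell. Pkp1, which encodes the desmosomal plakophilin of stratified epithelium, was well above background on no WT array and was at least 2080-fold higher (limma adjusted p = 2.07e-06). Evpl, which encodes envoplakin, differed by 3.47, and the only gene that fell was Dst. Of the 12, 9 had their lowest SCC signal on replicate 2, as had 30.6% of all genes tested, among them Pkp1 (12.11) and Evpl (12.64). Among genes for other intermediate filaments, Des, which encodes the muscle protein desmin, fell by 1.32, while Vim (-0.48) and Lmna (0.51), which encode vimentin and lamin A/C, were not called. All 3 cardiac muscle genes were called lower too, namely Myh6 (-4.68), Tnnt2 (-3.37) and Myl7 (-1.71), with summed log2 signals of 13.17 to 16.70 in WT and 13.03 to 13.26 in SCC. Their part in the fall of Des was not tested.

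Krt5, Krt14 and Krt17 are also made by myoepithelial cells, so myoepithelial markers were read. Of the myoepithelial and smooth muscle genes, Oxtr was well above background on no WT array and on 1 SCC array and was not tested, and of the other 3 none was called higher and 2 were called lower, beside 11.6% and 13.4% of all genes tested. Their summed log2 signal was 13.71 to 14.50 in WT and 13.74 to 14.51 in SCC. Krt4 and Krt13, which are keratins of oesophageal epithelium, are themselves among the keratins described above and so are no separate sign of that tissue. They had summed log2 signals of 7.84 to 7.97 in WT and 10.95 to 15.14 in SCC. The summed log2 signal of the 4 basal cell keratins was 8.46 to 8.87 in WT, 16.29 on SCC replicate 2 and 18.69 to 18.91 on the other SCC arrays.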

How the data were processed

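RNA of each sample was hybridised, with Cy3, to 1 single-colour Agilent mouse array. The authors extracted spot intensities with Agilent Feature Extraction (version 12 per the labels), and per the file headers these are processed signals after background subtraction. Log2 values in the matrix that the authors deposited matched the values below (r at least 0.999947 per array). The methods state quantile normalization, log2 and analysis of variance. Here control spots and outlier spots were left out, spots of a probe were averaged, and log2 processed signals were quantile-normalized. Probes well above background on at least 4 of 5 arrays of a group were tested with limma 3.58.1 (R 4.3.3), two-sided, with Benjamini-Hochberg adjustment. Probe accessions were named through RefSeq (GRCm38.p6), and 28223 of 41174 probes (68.5%) had 1 symbol. A gene with several probes was read from the brightest. The number of arrays limits the precision. Per the methods, replicates are biological. The members and lists were chosen with earlier results of these data known. Named genes were the members, their 3 nearest genes and the neighbours. From the 2 main lists they were the 5 largest rises, 3 largest falls and up to 5 uncalled genes with the largest mean. From other lists they were the 2 largest differences each way. The values of 1 gene of the basal cell list are not reported here, and the counts include it.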

Additional observations from a re-analysis of the deposited data

Results flagged for a closer look

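In each group of 5 arrays, the distance from each extreme array to the next was divided by the range of the group and compared with Dixon's limit of 0.71, which chance passes in about 1 of 20 groups. Of 20 groups examined (4 keratins and 6 pairs, in WT and SCC), 10 passed. SCC replicate 2 was low for Krt5 (ratio 0.879, signal 15.60 against 17.45 for the next array), Krt14 (0.894, 14.34 against 17.09) and Krt17 (0.953, 12.14 against 16.62). Krt14 on WT replicate 4 was high (0.729, 6.80 against 6.29). The pairs that passed share the members and are not separate evidence. They were, all on SCC replicate 2, Krt5 minus Krt14 (0.763, high), Krt5 minus Krt15 (0.806, low), Krt5 minus Krt17 (0.919, high), Krt14 minus Krt15 (0.831, low), Krt14 minus Krt17 (0.860, high) and Krt15 minus Krt17 (0.874, high). Krt15 itself on that array was the highest SCC value but did not pass the limit.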

How the results depend on the processing

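Each of the 4 keratins kept its direction and its call under 20 of 21 alternatives. The exception was the slide that held both groups (1 WT and 3 SCC arrays), where Krt5 differed by 11.13 (adjusted p = 0.123), Krt14 by 10.10 (0.173), Krt15 by 5.59 (0.172) and Krt17 by 7.61 (0.217), all by limma. That fit called 0 probes, 0 genes of the basal cell list and 0 keratins, with 5835 probes at an unadjusted p below 0.05, and it has fewer arrays by construction. The main count of 6954 called probes was 4044 with normexp background correction, 2989 with slide as a fixed block and 14878 by adjusted p alone. The 23 called keratins were 14 when only probes well above background on all 10 arrays were tested, and 13 with the slide block. Normexp was run on raw spot medians, with an offset of 50 added to every signal. It gave differences of 9.81 for Krt5, 9.18 for Krt14, 4.01 for Krt15 and 7.43 for Krt17.

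Leaving out 1 array in turn moved the difference from 11.21 to 11.74 for Krt5, 10.21 to 10.98 for Krt14, 5.21 to 5.64 for Krt15 and 7.86 to 9.03 for Krt17. Over those fits Krt5 minus Krt14 ranged from 0.75 to 1.20 and passed only without WT replicate 2, at 1.20, and Krt15 minus Krt17 ranged from -3.83 to -2.22 and passed only without SCC replicate 2. Without SCC replicates 2 and 5, an alternative chosen after seeing the data, Krt5 minus Krt14 was 0.71 (exact adjusted p = 0.143). With scaling on the 75th percentile, 3504 probes were called higher and 3080 lower, against 3014 and 3940, and the median of all probes moved from -0.090 to 0.032.

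The replicate block gave 6571 called probes, with limma adjusted p of 0.00037 for Krt5 and Krt14, 0.000323 for Krt15 and 0.00155 for Krt17, 16 basal cell genes and 22 keratins. The numbers did not pair the samples, since same-numbered deviations correlated at -0.099 to 0.0093 over 5 pairs and 0 WT arrays correlated best with their own number. No other probe was matched to any of the 4 keratins, so none could be tried. No paired analysis was made of the pair differences.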
